A study of Danio rerio with 7 samples.

Results

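Transcription factor Atf4 and the genes it drives form the transcriptional arm of the integrated stress response. The set examined here holds 10 zebrafish symbols, chosen by name and with earlier results of these data known. They are atf4b and its paralog atf4a, ddit3, asns, chac1, trib3, mthfd2, sesn2, slc7a11 and psat1. Of the 10, 9 had a row among the 32105 genes of the count table, and all 9 were among the 18565 genes that passed the filter on low counts. The atf4a gene has 1 ID in the symbol table used here, no row of the count table carries it, and atf4a was not analysed here. All values therefore concern atf4b and 8 genes known as Atf4 targets, mainly from work in mammals.

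The comparison was between ddx41 mutant zebrafish embryos, with 3 libraries (replicates 2, 3 and 4), and their siblings, with 4 libraries (replicates 1, 3, 4 and 5). Ddx41 is a DEAD-box RNA helicase, and the question was how transcripts of red-lineage cells differ when it is mutated. Both groups were gata1-positive cells, that is cells of the erythroid lineage, isolated at 40 hours post fertilization, and polyadenylated RNA was sequenced. The labels give neither the ddx41 allele nor the genotype of the siblings, nor whether a library came from pooled embryos or a separate clutch, so a p-value here speaks of the variation among these 7 libraries, which may be partly technical. The ddx41 transcript was not analysed here.

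In the integrated stress response, kinases that sense different stresses phosphorylate the translation factor eIF2. General protein synthesis then falls while the atf4 messenger RNA, through upstream open reading frames, is translated more. Atf4 protein, a bZIP factor, induces genes for amino acid import and synthesis, for folate-dependent carbon metabolism and for redox balance, and under lasting stress genes of growth arrest and cell death. Red cell precursors are known for Hri (eif2ak1), the eIF2 kinase that is held inactive by haem and so matches globin synthesis to the haem supply. Messenger RNA counts, as used here, do not report eIF2 phosphorylation or Atf4 protein.

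Total counts ran from 11814324 to 14363255 per library. Levels are given in CPM, counts scaled to the size of the library. In a principal component analysis of log2 CPM, mutants and siblings lay apart on the first axis (40.7% of the variance), while ddx41 mutant replicate 4 and sibling replicate 5 lay together at one end of the next (17.3%). All 14 IDs matched to the erythroid markers were detected. Their summed level was 58290, 57900 and 31270 CPM in mutant replicates 2, 3 and 4, against 71520 to 93160 CPM in siblings, so the groups did not overlap and mutant replicate 4 was lowest. Much of this sum was the globin gene hbae3, at 22950 CPM in mutants and 46136 CPM in siblings on average. Without hbae3 the sum was 26830, 33350 and 18430 CPM in mutant replicates 2, 3 and 4, against 31530 to 39410 CPM in siblings, and the groups overlapped, with mutant replicate 4 again lowest. By edgeR's test at an adjusted p of 0.05, hbae3 was lower and 1 of 2 SLC4A1 IDs (ENSDARG00000024560) was higher. That ID was at 195 CPM in mutants and 51.8 CPM in siblings. Both SLC4A1 IDs were matched to the marker slc4a1a by dropping its suffix, and the symbol does not tell which of them is slc4a1a. The other 12 of the 14 erythroid IDs were not called. The share called was 14.3%, beside 16.6% of all tested genes, and the median log2 fold change (mutant over sibling) of the 14 was -0.43. The more abundant SLC4A1 ID (ENSDARG00000012881) was not called, at 7970 CPM in mutants and 10997 CPM in siblings. All mutants were below all siblings for it, as for 12.8% of all tested genes. Among markers of other cells, the endothelial sum was 109.5 to 221.3 CPM in mutants and 72.8 to 109.5 CPM in siblings. Part of this sum was stab2, at 63.7 CPM in mutants and 7.33 CPM in siblings on average, and the sum without it was not computed. Of the 7 endothelial IDs, 3 had all mutants above all siblings (14.6% of all tested genes). For 1 (12.8% of all tested genes), stab1, at 23.5 CPM in mutants and 35.5 CPM in siblings, all mutants were below. The skeletal muscle sum was 46.1 to 49.0 CPM in mutants and 55.0 to 96.4 CPM in siblings. Overlapping ranges were found for macrophage and leukocyte markers (513.4 to 963.5 CPM in mutants, 883.6 to 1676 CPM in siblings), neutrophil markers (1847 to 3378 and 1784 to 3224), thrombocyte markers (342.6 to 431.7 and 306.1 to 391.4) and epidermal markers (796.7 to 1483 and 312.7 to 1145). The same was true of neural markers (79.98 to 262.4 CPM in mutants, 101.2 to 195.9 CPM in siblings), yolk and liver markers (15.1 to 40.8 and 19.0 to 40.9) and lens markers (8.12 to 25.4 and 9.89 to 16.6). Single markers moved within these sums. Of 14 tested macrophage and leukocyte IDs, 5 were lower and 1 was higher, with a median log2 fold change of -0.67. Lower were the chemokine gene ccl34b.1 (0.345 CPM in mutants, 15.4 CPM in siblings), ctss2.2 (5.01 and 16.6 CPM), LCP1 (44.2 and 74.6 CPM) and 2 of the MFAP4 IDs, of which ENSDARG00000088745 was at 68.0 CPM in mutants and 395 CPM in siblings. SPI1, a myeloid transcription factor gene, was higher (97.9 CPM in mutants, 55.2 CPM in siblings). Called higher were also 2 of 4 neutrophil, 2 of 7 endothelial and 2 of 8 epidermal IDs, and called lower were 3 of 9 skeletal muscle IDs and 1 of 10 neural IDs. Thrombocyte IDs (5 tested) and yolk and liver IDs (6 tested) each had 1 higher and 1 lower. Beside all these marker counts, 8.87% of all tested genes were called higher and 7.69% lower. The part of these shifts in the results on Atf4 genes was not tested. In such bulk libraries fewer cells of a type and less RNA per cell cannot be told apart.

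Of the 9 transcripts, 4 were lower in the ddx41 mutants, 1 was higher and 4 did not pass the test. The lower ones were atf4b itself, mthfd2, chac1 and trib3, by 1.61-fold to 2.33-fold, and the higher one was slc7a11, by 2.28-fold. The classical stress marker ddit3 and the amino acid genes asns and psat1 did not pass, nor did sesn2. The test was edgeR's quasi-likelihood test with Benjamini-Hochberg adjustment at 0.05 over all tested genes. By this rule 16.6% of all tested genes differed, 7.69% lower and 8.87% higher in mutants. The groups did not overlap for these 5 genes, 4 with all mutants below all siblings and 1 with all above, as was the case for 12.8% (below) and 14.6% (above), or 27.5% in all, of the tested genes. Without mutant replicate 2 or sibling replicate 3 or 4, only mthfd2 was still called lower, and without sibling replicate 1 or 5, 2 genes were. Lower calls over all tested genes also fell, from 1427 to 874, 1112 and 1039 in the first 3 of these fits. Without sibling replicate 1 or 5 they were 1048 and 1164. The median log2 fold change (mutant over sibling) was -0.35 over the 9 genes and 0.04 over all tested genes. Over the 14 erythroid marker IDs it was -0.43, so a median this low was not particular to the 9 genes.

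**Figure D1:**
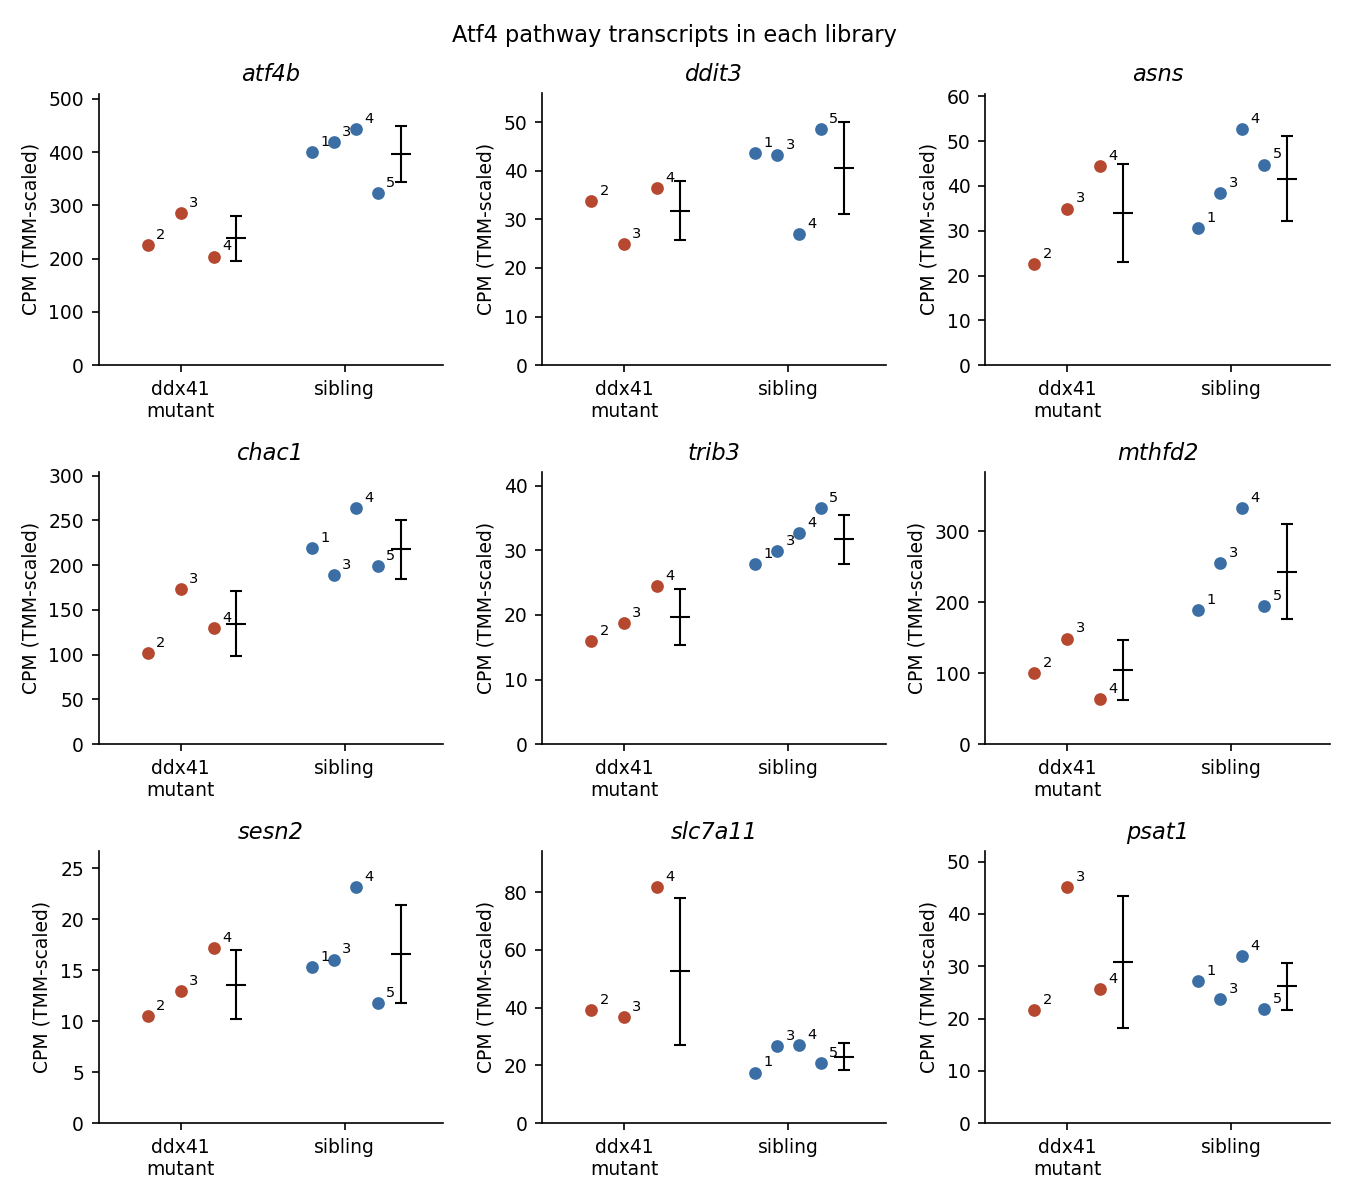
Level of each of the 9 transcripts in every library, in CPM with TMM scaling; each axis starts at 0, numbers beside points are replicate numbers, and the bar is the group mean with its SD (n = 3 ddx41 mutants, n = 4 siblings). All mutant libraries lie below all siblings for atf4b, chac1, trib3 and mthfd2 and above them for slc7a11, while the groups overlap for ddit3, asns, sesn2 and psat1.

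The transcription factors come first. atf4b (ENSDARG00000038141) encodes the bZIP activator at the head of the set. It stood at 225, 285 and 204 CPM in mutant replicates 2, 3 and 4, against 400.0, 419, 443 and 323 CPM in sibling replicates 1, 3, 4 and 5. Every mutant library was below the lowest sibling, which was replicate 5. The fitted log2 fold change was -0.74 ± 0.20 (SE), a level 1.67-fold lower in mutants with a 95% interval of 1.24-fold to 2.23-fold (edgeR adjusted p = 0.0192). Without mutant replicate 2 or sibling replicate 3 or 4 the edgeR adjusted p was 0.0877, 0.0602 and 0.0639, with atf4b lower in mutants each time.

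ddit3 (ENSDARG00000059836) encodes Chop, a bZIP partner of Atf4 that in mammals promotes cell death under endoplasmic reticulum stress. Its values were 33.8, 24.9 and 36.5 CPM in mutant replicates 2, 3 and 4, against 43.6, 43.2, 26.9 and 48.6 CPM in sibling replicates 1, 3, 4 and 5. Sibling replicate 4 lay within the mutant range, so the groups overlapped, and the log2 fold change of -0.35 ± 0.23 did not pass (edgeR adjusted p = 0.339). The 95% interval of the ratio of mutant to sibling levels ran from 0.554 to 1.11, so a rise of more than 1.11-fold lies outside it.

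trib3 (ENSDARG00000016200) encodes a pseudokinase that in mammals is induced by Atf4 and Chop and restrains Atf4 activity. It was at 16.0, 18.7 and 24.4 CPM in mutant replicates 2, 3 and 4, against 27.8, 29.8, 32.6 and 36.5 CPM in sibling replicates 1, 3, 4 and 5. The groups did not overlap, and mutant replicate 4 came nearest to the siblings. The level was 1.61-fold lower in mutants (log2 fold change -0.68 ± 0.22, edgeR adjusted p = 0.0476). Being close to the threshold, the call was kept in 1 of the 7 fits with 1 library left out, that without mutant replicate 4, and the edgeR adjusted p ran up to 0.193 in the others.

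The genes of glutathione and cystine handling moved in opposite directions. chac1 (ENSDARG00000070426) encodes an enzyme that degrades glutathione. It was at 101, 173 and 129.6 CPM in mutant replicates 2, 3 and 4, against 219, 188, 264 and 199 CPM in sibling replicates 1, 3, 4 and 5. No mutant library reached the lowest sibling, although mutant replicate 3 and sibling replicate 3 were close. The level was 1.62-fold lower in mutants (log2 fold change -0.69 ± 0.21, edgeR adjusted p = 0.0382). This call too was kept in 1 of the 7 fits with 1 library left out, that without mutant replicate 3, and the edgeR adjusted p ran up to 0.191 in the others.

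slc7a11 (ENSDARG00000071384) encodes the light chain of the cystine-glutamate exchanger, which supplies cystine for glutathione synthesis. It was at 39.2, 36.7 and 81.8 CPM in mutant replicates 2, 3 and 4, against 17.5, 26.7, 27.2 and 20.9 CPM in sibling replicates 1, 3, 4 and 5. All mutant libraries were above all siblings, and mutant replicate 4 was more than 2-fold above the other mutants. The level was 2.28-fold higher in mutants, with a 95% interval of 1.51-fold to 3.43-fold (log2 fold change 1.19 ± 0.28, edgeR adjusted p = 0.00868). Without mutant replicate 4, the library with the lowest erythroid and the highest neural and epidermal marker sums, the log2 fold change was 0.72 and the edgeR adjusted p was 0.0539.

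Among the metabolic enzymes, mthfd2 had the largest fitted fold change of the 9 genes. mthfd2 (ENSDARG00000098646) encodes a mitochondrial enzyme of the folate cycle that turns carbon units from serine into formate precursors. It was at 100.5, 149 and 63.9 CPM in mutant replicates 2, 3 and 4, against 189, 255, 333 and 195 CPM in sibling replicates 1, 3, 4 and 5. Every mutant library was below every sibling, and mutant replicate 4 was lowest. The level was 2.33-fold lower in mutants, with a 95% interval of 1.54-fold to 3.52-fold (log2 fold change -1.22 ± 0.28, edgeR adjusted p = 0.0079). The call was kept with each of the 7 libraries left out, at adjusted p values of 0.00221 to 0.037.

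asns (ENSDARG00000016375) encodes asparagine synthetase, a textbook Atf4 target. It was at 22.6, 34.9 and 44.4 CPM in mutant replicates 2, 3 and 4, against 30.5, 38.4, 52.7 and 44.8 CPM in sibling replicates 1, 3, 4 and 5. The groups overlapped, with mutant replicate 2 below all siblings and mutant replicates 3 and 4 among them. The interval of the ratio of mutant to sibling levels ran from 0.564 to 1.19 (log2 fold change -0.29 ± 0.25, edgeR adjusted p = 0.481).

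psat1 (ENSDARG00000016733) encodes the aminotransferase of serine synthesis. It was at 21.7, 45.1 and 25.6 CPM in mutant replicates 2, 3 and 4, against 27.1, 23.7, 31.9 and 21.8 CPM in sibling replicates 1, 3, 4 and 5. Mutant replicate 3 stood above all siblings, replicate 4 within their range and replicate 2 just below it. The log2 fold change was 0.24 ± 0.26 (edgeR adjusted p = 0.589), and it was -0.19 without mutant replicate 3.

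sesn2 (ENSDARG00000070012) encodes a sestrin, in human cells a leucine sensor that holds back the growth kinase mTORC1. It was the least abundant of the 9 by CPM, at 10.5, 13.0 and 17.2 CPM in mutant replicates 2, 3 and 4, against 15.3, 16.0, 23.2 and 11.8 CPM in sibling replicates 1, 3, 4 and 5. The groups overlapped, and the ratio of mutant to sibling levels had an interval of 0.539 to 1.25 (log2 fold change -0.29 ± 0.28, edgeR adjusted p = 0.546).

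**Figure D2:**
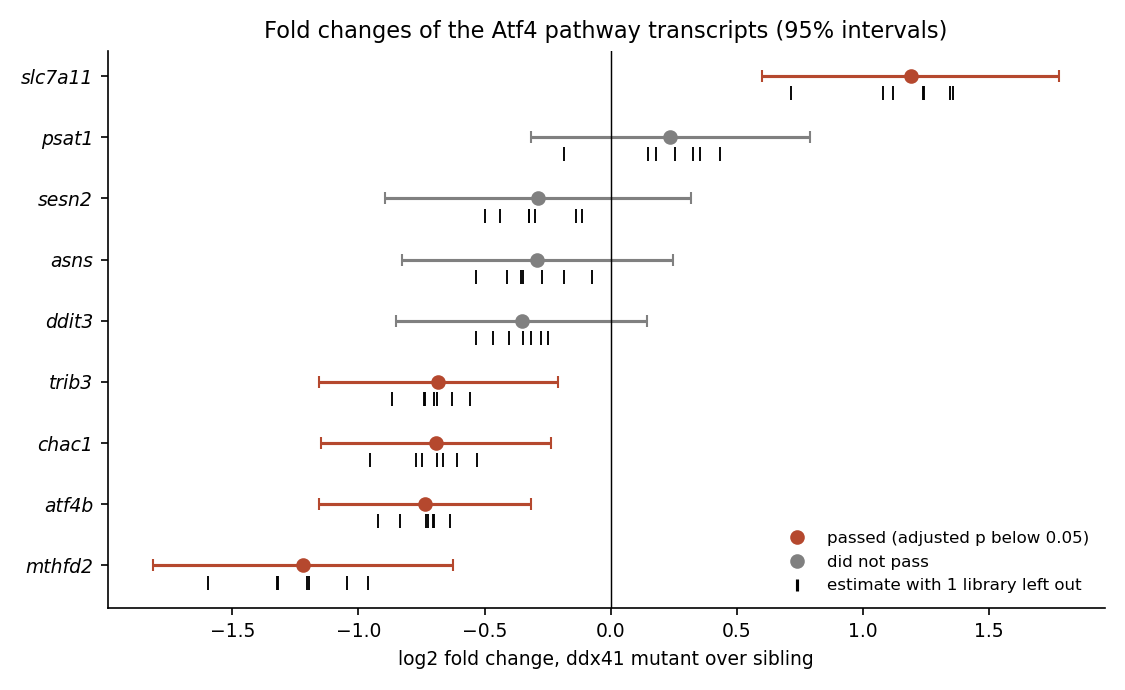
Log2 fold change (mutant over sibling) of the 9 transcripts from edgeR, with 95% intervals; red points passed the test, grey points did not, and black ticks are the estimates with 1 library left out. The intervals of mthfd2, atf4b, chac1, trib3 and slc7a11 exclude 0, and the tick of slc7a11 at 0.72 and that of psat1 at -0.19 are the fits without mutant replicate 4 and mutant replicate 3.

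The 9 genes did not share 1 order of libraries within the mutants. Replicate 2 was the lowest mutant for 5 of them (asns, chac1, trib3, sesn2 and psat1) and the highest for none. Replicate 3 was the highest for 4 (atf4b, chac1, mthfd2 and psat1), and replicate 4 for the other 5. Mutant replicate 4 thus held the lowest atf4b and mthfd2 and the highest ddit3, asns, trib3, sesn2 and slc7a11 of the mutants. In siblings, replicate 4 was highest for 7 of the 9 genes and lowest for ddit3. The ratio of the highest to the lowest library was 1.40 among mutants and 1.37 among siblings for atf4b. It was larger among mutants for mthfd2 (2.33 against 1.76 in siblings), slc7a11 (2.23 against 1.55) and psat1 (2.08 against 1.46).

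**Figure D3:**
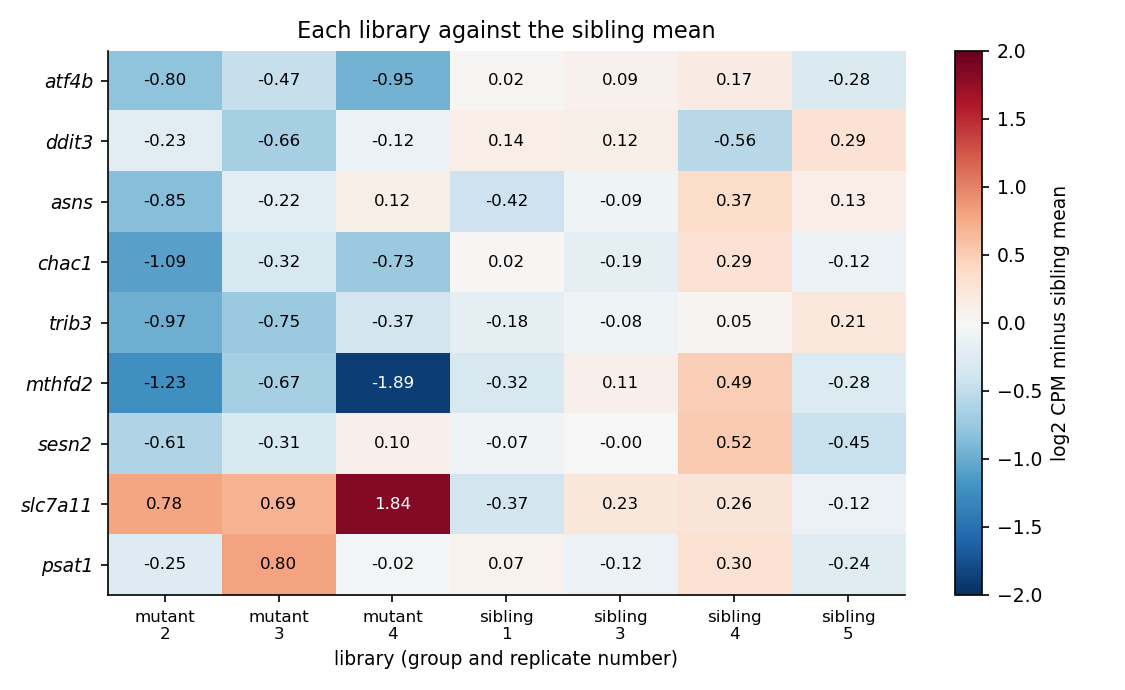
Log2 CPM of each transcript in each library minus the mean log2 CPM of the siblings; columns are libraries with their replicate number, rows are genes, red is above and blue below the sibling mean. atf4b, chac1, trib3 and mthfd2 are blue in all 3 mutant libraries and slc7a11 is red in all 3, with mutant replicate 4 at -1.89 for mthfd2 and 1.84 for slc7a11.

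Ratios of counts within a library do not depend on scaling between libraries. They are given without correction for transcript length and describe how each gene moved relative to atf4b, whose own level was lower in mutants. Per atf4b count, chac1 stood at 0.450 to 0.636 counts in mutants and 0.449 to 0.615 in siblings, and trib3 at 0.0658 to 0.120 in mutants and 0.0696 to 0.113 in siblings, so these ranges nearly coincided. The fitted log2 fold changes of atf4b, chac1 and trib3 were close (-0.74, -0.69 and -0.68). Like ratios follow from that for any gene lowered to this degree, and are not a separate result. Per atf4b count, psat1 reached 0.0961 to 0.159 in mutants, against 0.0566 to 0.0720 in siblings, and slc7a11 reached 0.129 to 0.401 in mutants, against 0.0438 to 0.0647 in siblings. For both, every mutant library lay above every sibling, although psat1 itself did not pass the test on CPM. The ranges overlapped for ddit3, asns, sesn2 and mthfd2. Because atf4b was lower in mutants, a gene of unchanged level has a higher ratio to it there. How many of all tested genes separate in this way per atf4b count was not computed. The separation of psat1 and slc7a11 per atf4b count is therefore not a result about either gene. The ratio of slc7a11 to mthfd2 counts was 0.390, 0.247 and 1.28 in mutant replicates 2, 3 and 4, against 0.0816 to 0.107 in siblings. That is a mean difference of 2.37 on the log2 scale, given as a description because both genes were known to differ, and it was 1.69 without mutant replicate 4.

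**Figure D4:**
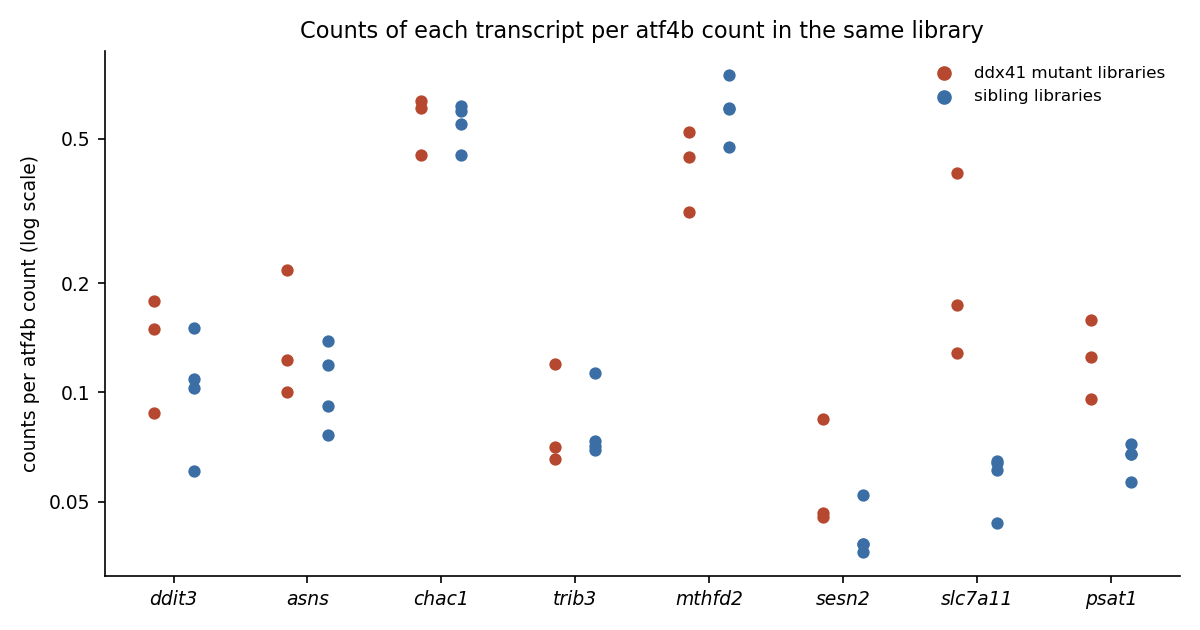
Counts of each transcript per atf4b count in the same library, on a log axis, with ddx41 mutant libraries (red) left of sibling libraries (blue); each point is 1 library. The points of slc7a11 and psat1 do not overlap between the groups, and those of chac1 and trib3 cover nearly the same range. The share of all tested genes that separate per atf4b count was not computed.

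For each of the 5 genes that passed, the other genes whose centred log2 CPM over the 7 libraries differed least from it were looked up. The likeness is the root mean square difference on the log2 scale. AARS1, the alanyl-tRNA synthetase gene, came nearest to mthfd2, at 0.150, with zgc:109913 next, at 0.160. POLK, a DNA repair polymerase gene, and GMPPA (ENSDARG00000024112) came nearest to atf4b, at 0.0760 and 0.0831, and MPND and the heat-shock chaperone gene hsp70.3 to chac1, at 0.0678 and 0.0844. ELMO1 and MARK4 came nearest to trib3, at 0.0601 and 0.0607, and the disulfide isomerase gene pdia2 and RABL3 to slc7a11, at 0.144 and 0.156. The points share the 2 groups and their libraries, so a gene chosen this way separates the groups by construction. GMPPA, MPND and ELMO1 did not pass the test.

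The rest of the pathway was counted in 13 lists. Of 197 symbols 187 were matched to an ID, and 186 IDs were tested. Of these, 31 (16.7%) were lower and 19 (10.2%) were higher in mutants, beside 7.69% and 8.87% of all tested genes, and the median log2 fold change was -0.14. Without mutant replicate 2 the counts were 16 lower and 13 higher, and without mutant replicate 3 they were 30 lower and 12 higher. Of all tested genes, 874 were lower and 1014 higher without mutant replicate 2, and 1487 and 1348 without mutant replicate 3. With all libraries these were 1427 and 1646. The share called was 0% in the eIF2 phosphatase list, 10.5% in the synthetase list, 11.8% in the bZIP list and 12.5% in the eIF2 subunit list. It was 21.1% to 41.2% in the other lists, beside 16.6% of all tested genes.

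Upstream of Atf4 stand the eIF2 kinases, of which 1 of 4 tested genes, a cofactor included, was lower. eif2ak2, the gene of the kinase Pkr that senses double-stranded RNA, was at 7.98 ± 1.66 CPM in mutants (SD, n = 3) and 23.4 ± 2.78 CPM in siblings (SD, n = 4), a 2.94-fold lower level (edgeR adjusted p = 0.000809). The other tested genes of this list did not pass. From the list, eif2ak1, GCN1 and EIF2AK4 were named after their values were seen. The haem-regulated kinase gene eif2ak1 was at 192 ± 64.4 CPM in mutants and 226 ± 36.9 CPM in siblings (edgeR adjusted p = 0.543). EIF2AK3, encoding Perk of the endoplasmic reticulum, was at 14.5 CPM in mutants and 9.28 CPM in siblings (edgeR adjusted p = 0.137). All mutants were above all siblings for EIF2AK3, as for 14.6% of all tested genes. GCN1, a cofactor of the amino acid sensing kinase Gcn2, was at 44.0 CPM in mutants and 56.7 CPM in siblings (edgeR adjusted p = 0.234). EIF2AK4, the Gcn2 gene, is listed at 0 in every library and was not tested.

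Of 8 eIF2 and eIF2B subunit genes, 1 was higher. EIF2S2, the beta subunit of eIF2, was 1.63-fold higher in mutants (edgeR adjusted p = 0.0269), a call kept without sibling replicate 3 or mutant replicate 4 and lost without any 1 of the other 5 libraries. EIF2B2, of the nucleotide exchange factor that phosphorylated eIF2 blocks, was at 22.4 CPM in mutants and 33.4 CPM in siblings (edgeR adjusted p = 0.0888). All mutants were below all siblings for EIF2B2, as for 12.8% of all tested genes. Of the 5 eIF2 phosphatase subunit genes, 0 passed with edgeR, DESeq2 or limma-voom, and 1 had an unadjusted edgeR p under 0.05. That gene was ppp1r15b, the constitutive regulatory subunit, at 8.49 CPM in mutants and 4.39 CPM in siblings (edgeR adjusted p = 0.111). Its mutant libraries were all above the siblings, as for 14.6% of all tested genes. The stress-induced subunit gene ppp1r15a, an Atf4 pathway target in mammals that was named after its values were seen, was at 175 ± 26.3 CPM in mutants (SD, n = 3) and 186 ± 16.9 CPM in siblings (SD, n = 4; edgeR adjusted p = 0.803). The catalytic subunit gene ppp1cab was at 147 CPM in mutants and 168 CPM in siblings (edgeR adjusted p = 0.538).

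Of 17 bZIP partners and related factors, 1 was lower and 1 was higher. atf5a, a factor translated under eIF2 phosphorylation like Atf4, was at 35.2 ± 9.21 CPM in mutants (SD, n = 3) and 64.2 ± 11.4 CPM in siblings (SD, n = 4), 1.83-fold lower (edgeR adjusted p = 0.0159, above 0.05 without mutant replicate 2 or sibling replicate 4). NFE2L1, a bZIP gene of proteasome and redox control, was 2.25-fold higher, at 12.8 CPM in mutants and 5.68 CPM in siblings (edgeR adjusted p = 0.0361), and this call was lost without mutant replicate 3 or sibling replicate 1, 4 or 5. Its more abundant paralog nfe2l1b, named after its values were seen, was at 45.1 CPM in mutants and 57.7 CPM in siblings. All mutants were below all siblings for nfe2l1b, as for 12.8% of all tested genes, and it did not pass (edgeR adjusted p = 0.224). Without mutant replicate 4, 4 genes of this list were lower, and so were 1346 of all tested genes, against 1427 with all libraries.

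Enzymes of serine, glycine and folate metabolism work beside Mthfd2 and Psat1. Of 17 tested, 6 were lower and 1 was higher in mutants. SHMT2, the mitochondrial serine hydroxymethyltransferase that feeds Mthfd2, was at 86.8 ± 30.8 CPM in mutants (SD, n = 3) and 149 ± 18.1 CPM in siblings (SD, n = 4), 1.72-fold lower (edgeR adjusted p = 0.0379). MTHFD1 (ENSDARG00000018266, 1 of 2 IDs with that symbol, the other not called), a cytosolic relative of mthfd2, was 1.91-fold lower (0.0184). TYMS, the thymidylate synthase gene that uses folate carbon for DNA precursors, was instead 1.78-fold higher, with overlapping groups (edgeR adjusted p = 0.0423). PHGDH and PSPH, named after their values were seen because their enzymes stand before and after Psat1 in serine synthesis, were low in both groups. PHGDH was at 2.04 ± 0.704 CPM in mutants (SD, n = 3) and 5.95 ± 2.10 CPM in siblings (SD, n = 4), 2.92-fold lower (edgeR adjusted p = 0.0309), and PSPH was 2.17-fold lower (0.034). Each of these 2 calls was lost in 4 of the 7 fits with 1 library left out, PHGDH without mutant replicate 2 or 4 or sibling replicate 1 or 3 and PSPH without mutant replicate 3 or 4 or sibling replicate 1 or 4. AMT, a gene of the glycine cleavage system also named after its values were seen, was at 1.13 CPM in mutants and 4.11 CPM in siblings (edgeR adjusted p = 0.0315) and was called only without mutant replicate 3 or sibling replicate 3. SHMT2 was not called without mutant replicate 4 or any 1 of the siblings, MTHFD1 not without mutant replicate 2 or 4 or sibling replicate 5, and TYMS was called only without mutant replicate 4 or sibling replicate 1. The number of lower genes was 3 without mutant replicate 2 or sibling replicate 4 or 5, 2 without sibling replicate 1 and 1 without mutant replicate 4. Of all tested genes, 874, 1039 and 1164 were lower without mutant replicate 2, sibling replicate 4 and sibling replicate 5. Without sibling replicate 1 and mutant replicate 4 the numbers were 1048 and 1346, against 1427 with all libraries.

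Of 25 amino acid transporter IDs, 8 were lower and 2 were higher in mutants. The glycine transporter gene SLC6A9, which in red cell precursors supplies glycine for haem, was at 338 ± 101 CPM in mutants (SD, n = 3) and 672 ± 86.2 CPM in siblings (SD, n = 4), 1.99-fold lower (edgeR adjusted p = 0.00734). SLC38A2, a glutamine and alanine transporter gene and an Atf4 target in mammals, was 1.82-fold lower, at 252 ± 42.2 CPM in mutants and 459 ± 31.1 CPM in siblings (0.0058). The neutral amino acid transporter genes SLC7A8 and SLC43A2 (ENSDARG00000036848, 1 of 2 IDs) were 2.37-fold and 2.42-fold lower. SLC7A5, the large neutral amino acid transporter gene, was 1.87-fold lower and SLC1A5, a glutamine transporter gene, 1.85-fold lower, with edgeR adjusted p of 0.0181 and 0.0268. The groups of SLC1A5 overlapped, with mutant replicate 3 at 60.6 CPM and sibling replicate 1 at 59.8 CPM. Without mutant replicate 2 or 4 or sibling replicate 4 neither SLC7A5 nor SLC1A5 passed, and SLC1A5 also did not without sibling replicate 5. The number of lower transporter genes was 4 without mutant replicate 2, and 1 was higher without mutant replicate 2 or 3. Of all tested genes, 874 were lower without mutant replicate 2, against 1427 with all libraries. Higher were 1014 and 1348 without mutant replicates 2 and 3, against 1646. The remaining called transporter genes, named after their values were seen, were 2 lower (SLC7A1 and SLC38A3, ENSDARG00000027065) and 2 higher (slc7a1a and SLC43A1, ENSDARG00000037748). IDs with related names for the cationic amino acid transporter thus stood on both sides, slc7a1a 2.98-fold higher (edgeR adjusted p = 0.00574) and SLC7A1 1.92-fold lower (0.0285). slc7a1a was called with each library left out, and SLC7A1 was not without mutant replicate 2 or 3 or sibling replicate 1 or 3. The called SLC43A1 ID was at 6.27 CPM in mutants and 2.18 CPM in siblings. The called SLC38A3 ID was at 1.86 CPM in mutants and 5.91 CPM in siblings (edgeR adjusted p = 0.0312). Its call was lost without mutant replicate 2 or 3 or sibling replicate 1 or 5. The other IDs of SLC43A1, SLC43A2 and SLC38A3, named after their values were seen, did not pass. SLC38A3 ENSDARG00000091061 was at 11.0 CPM in mutants and 11.7 CPM in siblings (edgeR adjusted p = 0.870). SLC43A1 ENSDARG00000037393 was at 122 CPM in mutants and 125 CPM in siblings (edgeR adjusted p = 0.935), and SLC43A2 ENSDARG00000061120 at 24.1 and 18.5 CPM (0.368). SLC3A2 (ENSDARG00000037012), named after its values were seen because its product is the heavy chain that joins Slc7a11 in the cystine exchanger, was at 91.9 CPM in mutants and 123 CPM in siblings (edgeR adjusted p = 0.274).

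Among 19 other amino acid enzyme IDs, 2 were lower and 2 were higher. pycr1b, a proline synthesis gene, was at 1.40 ± 0.0857 CPM in mutants (SD, n = 3) and 12.8 ± 3.70 CPM in siblings (SD, n = 4), 9.11-fold lower (edgeR adjusted p = 4.56e-05). BCAT2, which starts the breakdown of branched-chain amino acids, was 1.92-fold higher (edgeR adjusted p = 0.0111). The other lower one was GLUL (ENSDARG00000099776), a glutamine synthetase gene named after its values were seen, at 3.79 ± 3.98 CPM in mutants and 17.6 ± 1.57 CPM in siblings (edgeR adjusted p = 0.0127, and 0.0542 without mutant replicate 2).

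Glutathione and cystine genes stand beside slc7a11 and chac1, and 4 of 13 were higher and 1 was lower. NQO1, a quinone reductase gene and a classical target of the redox factor Nrf2, was at 79.6 ± 34.5 CPM in mutants (SD, n = 3) and 24.2 ± 5.12 CPM in siblings (SD, n = 4), 3.29-fold higher (edgeR adjusted p = 0.000877). GSR, the glutathione reductase gene, was 1.89-fold higher (0.0062). The peroxiredoxin gene prdx1 (ENSDARG00000058734) was 2.06-fold higher (0.0137, above 0.05 without mutant replicate 2 or 3). A more abundant ID with the symbol PRDX1 (ENSDARG00000025350), named after its values were seen, was at 1301 CPM in mutants and 1476 CPM in siblings (edgeR adjusted p = 0.624). The remaining calls, named after their values were seen, were GCLM, a subunit of the rate-limiting enzyme of glutathione synthesis, 1.76-fold higher (edgeR adjusted p = 0.0451), and the glutathione peroxidase gene gpx4a, 1.76-fold lower (0.0417). GCLM was still called only without sibling replicate 4 and gpx4a only without sibling replicate 5. The number of higher genes was 2 without mutant replicate 2 or 3. Of all tested genes, 1014 and 1348 were higher in these fits, against 1646 with all libraries.

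Of 19 cytosolic aminoacyl-tRNA synthetase genes, many of them Atf4 targets in mammals, 1 was lower and 1 was higher, and the median log2 fold change was -0.24. AARS1 was at 64.0, 86.7 and 46.0 CPM in mutant replicates 2, 3 and 4, against 139, 144, 183 and 120.1 CPM in sibling replicates 1, 3, 4 and 5. It was lowest in the same mutant library as mthfd2 and was 2.24-fold lower in mutants (edgeR adjusted p = 0.00347). All its mutants were below all siblings, as for 12.8% of all tested genes. AARS1 was also the gene nearest to mthfd2 by likeness, so what the levels of both genes share is not a separate result. KARS1, the lysyl-tRNA synthetase gene, was 1.53-fold higher (edgeR adjusted p = 0.0334), a call kept only without mutant replicate 4 among the 7 fits with 1 library left out.

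Among 15 genes of sestrins and mTORC1 control, 4 were lower and 2 were higher. sesn3, a paralog of sesn2, was at 43.5 ± 12.5 CPM in mutants (SD, n = 3) and 12.2 ± 4.33 CPM in siblings (SD, n = 4), 3.57-fold higher (edgeR adjusted p = 0.000587). NPRL3, of the GATOR1 complex that switches mTORC1 off when amino acids are scarce, was 2.67-fold higher (0.000831). RPTOR, the scaffold subunit of mTORC1, was 2.11-fold lower (0.00402). DEPTOR and TSC1 (ENSDARG00000057918, 1 of 2 IDs, the other not called), both genes of mTORC1 inhibitors, were 2.19-fold and 1.95-fold lower. The fourth lower gene, castor1, an arginine sensor in human cells that was named after its values were seen, was 2.50-fold lower (edgeR adjusted p = 0.0165, above 0.05 without mutant replicate 2 or sibling replicate 4). In the list of tribbles and cell death genes, 1 of 8 was higher and 1 was lower. bbc3, encoding the death-promoting protein Puma, was at 42.7 CPM in mutants and 5.57 CPM in siblings (edgeR adjusted p = 3.63e-05). pmaip1, encoding Noxa of the same class of proteins, was 3.29-fold lower (0.00622).

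Other stress programmes share sensors with this response. Of 24 genes of endoplasmic reticulum chaperones and sensors, 6 were lower, and the list's median log2 fold change was -0.38. The co-chaperone gene DNAJB11 was 1.89-fold lower (edgeR adjusted p = 0.00788), PDIA3, a disulfide isomerase gene, 1.73-fold (0.0155), and CRELD2, an endoplasmic reticulum protein gene, 2.13-fold (0.0153). The calreticulin gene calr3a was 1.71-fold lower (0.0224) and HSP90B1 1.68-fold lower (0.0444). SDF2L1, a chaperone partner named after its values were seen, was 1.93-fold lower (0.0314), and not called without mutant replicate 2 or 4 or sibling replicate 1 or 4. CRELD2, PDIA3, calr3a and HSP90B1 did not pass without mutant replicate 2, calr3a and HSP90B1 also not without mutant replicate 3 or sibling replicate 1, and HSP90B1 not without sibling replicate 3 or 5. Of the 24, 1 was lower without mutant replicate 2 and 3 were lower without sibling replicate 1. Of all tested genes, 874 and 1048 were lower in these fits, against 1427 with all libraries. Of 12 mitochondrial stress IDs, 4 were higher, and the list's median log2 fold change was 0.53. HSPA9, the mitochondrial Hsp70 gene, was at 242 ± 12.4 CPM in mutants (SD, n = 3) and 90.5 ± 8.17 CPM in siblings (SD, n = 4), 2.68-fold higher (edgeR adjusted p = 6.2e-05). The protease gene AFG3L2 was 2.45-fold higher (0.000923), the chaperonin cofactor gene HSPE1 2.19-fold (0.00257) and the protease gene LONP1 1.82-fold (0.0188, above 0.05 without mutant replicate 3 or sibling replicate 1 or 5).

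**Figure D5:**
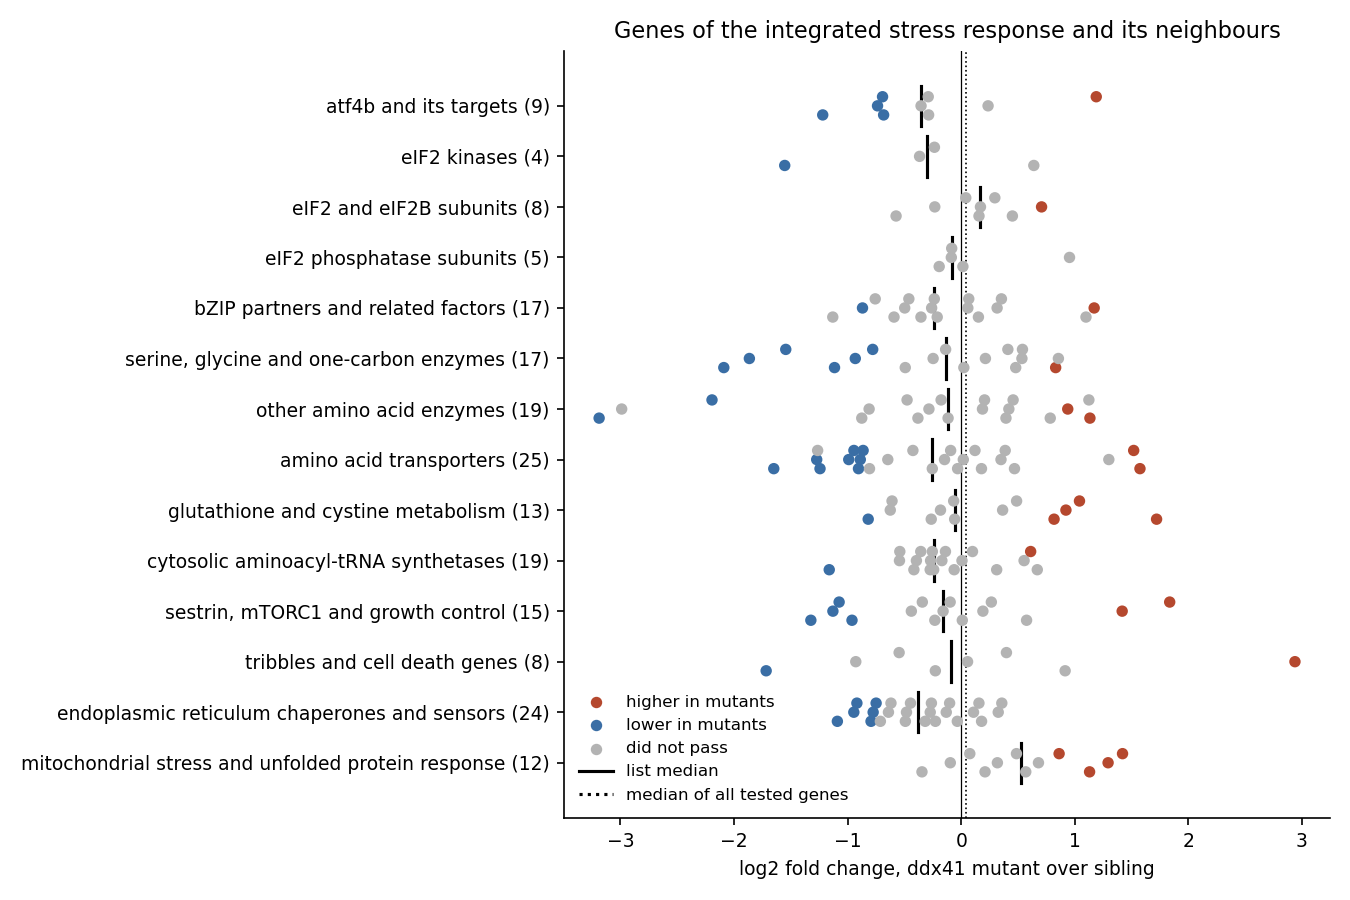
Log2 fold change (mutant over sibling) of every tested gene in the set and in the 13 further lists, with the number tested in brackets; red and blue points passed edgeR's test as higher or lower in mutants, bars are list medians and the dotted line is the median of all tested genes. Lower calls stand among transporters (8 of 25), enzymes of serine, glycine and folate metabolism (6 of 17) and endoplasmic reticulum genes (6 of 24), and the mitochondrial list has 4 higher of 12. Of all tested genes, 7.69% were lower and 8.87% were higher.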

How the data were processed

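Per the deposited table, the authors supplied raw counts per Ensembl gene, 1 column for each of the 7 libraries, and 0 columns belonged to other samples. Listed in the submitters' processing notes, with no roles, are STAR 2.4.2a, Cufflinks 2.2.1, Trim Galore, Picard, DESeq2 and the build GRCz10. Neither the counter nor its use of strand is given in the sources used here, and reads of overlapping or antisense genes may be shared.

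Of the 32105 Ensembl IDs, 26269 had a symbol in the name table. Paralog suffixes were dropped where no exact match existed, so IDs that share a symbol are given with their ID. In R 4.3.3, edgeR 4.0.16 kept genes with filterByExpr (minimum count 10, total 15), scaled by TMM and ran the quasi-likelihood test with Benjamini-Hochberg adjustment. Standard errors are the log2 fold change over the root of F. On simulated data of 18565 genes made from these libraries, 37% of genes changed 2-fold and 92% of those changed 4-fold were recovered. There 100 genes were changed 2-fold and 100 were changed 4-fold, and 139 genes were called, 7.19% of them falsely. The data themselves had 3073 called genes, so the simulated recovery does not measure recovery in the data. Intervals are for the fitted fold change between the groups and were computed from the spread between libraries, so single libraries can lie outside them. No pair of libraries of the same group agreed within sampling noise (chi-square over its degrees of freedom, 16.0 to 57.9).

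The members and lists were chosen with earlier results of these data known. Named were all 9 genes, the 2 smallest p of each list, called list genes of at least 20 CPM on average, and the 2 nearest genes by likeness (pseudocount 0.5, mean of at least 5 CPM). 1 planned gene list, 2 genes that the rule names, the planned values that need atf4a and a planned promoter search are not reported here. Alternatives were other scalings, filters, DESeq2 1.42.0, limma-voom (limma 3.58.1), robust fitting, a replicate block and each library left out.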

Additional observations from a re-analysis of the deposited data

How the results depend on the processing

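mthfd2 was lower and passed under all 17 alternatives, with log2 fold changes of -1.60 to -0.96. ddit3, asns and sesn2 were lower and did not pass in any of the 17. The calls of atf4b, chac1, trib3 and slc7a11 were lost in 4, 8, 9 and 3 of the 17, with no change of direction, and psat1, not called in any, ran from -0.19 without mutant replicate 3 to 0.43 without mutant replicate 2. With 1 library left out, 0 to 1 of the 9 genes were higher and 1 to 3 lower, 12 to 19 and 16 to 30 of the other pathway genes, and 1014 to 1471 and 874 to 1487 of all tested genes. With the replicate block, 0 of the 9 were higher and 1 was lower, 6 and 5 other pathway genes were higher and lower, and 592 and 431 of all tested genes. Replicate numbers 1, 2 and 5 occur in 1 group only, so that fit compares the groups through numbers 3 and 4. Its fewer calls therefore do not measure an effect of the replicate number. The same numbers did not deviate together (correlations of -0.0163 for number 3 and -0.160 for number 4), so the samples were taken to share only a number. Mutant replicates 2, 3 and 4 correlated best with sibling replicates 3, 4 and 5 (0.169, 0.190 and 0.236). No label gives such pairs and no fit used them. Without sibling replicate 5 and mutant replicate 4 together, chosen after seeing the data, 0 of the 9 were higher and 2 lower, slc7a11 had a log2 fold change of 0.67 (adjusted p = 0.103), and 15 and 25 other pathway genes were called. Of all tested genes, 1234 were higher and 1084 lower in that fit. With library totals alone the median log2 fold change of all genes was 0.12, trib3 had an adjusted p of 0.0916 and 3 of the 9 were lower. Of all tested genes, 1191 were lower in that fit, against 1427 in the main one. The log2 ratio of slc7a11 to mthfd2 ran from 1.69 to 2.88 with 1 library left out. Among uncalled genes named beside the 9, with 1 library left out the log2 fold change of ppp1r15a ran from -0.21 to 0.0096 and that of PRDX1 from -0.33 to 0.012, the positive ends without mutant replicate 4, and ppp1r15a stood at 0.068 without that library and sibling replicate 5. The planned values that need atf4a were not run. A gene that did not pass may still differ. Simulated recovery of 2-fold changes was incomplete, in a simulation with far fewer changed genes than were called in the data.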
